A study of Mus musculus with 12 samples.

Results

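Interferon-stimulated genes were followed in mouse fibroblasts that expressed parts of VEGF. The 33 genes were taken by symbol from the deposited count table, where each had 1 row among 54447 features, and 21 of them were high enough to be tested together with 13608 genes in all. The study placed N-VEGF (the N-terminal part of L-VEGF, a longer VEGF-A isoform) with a His tag under a doxycycline (dox)-inducible Tet promoter in a lentiviral vector with puromycin resistance, with or without a nuclear localization sequence (NLS) taken from Cas9. The cells are labelled mouse embryonic fibroblasts (MEFs), and the study names them as NIH3T3, an immortalized mouse fibroblast line. The 4 groups of 3 libraries were both cell populations, NLS-N-VEGF and N-VEGF, each before and after dox, with cells collected 16 hours after dox was added, as the study states. Every group was transduced, puromycin-selected and carried the Tet activator, so no library here serves as an untransduced control, and what transduction does to these genes was not analysed here. Empty-vector cells with dox were not analysed here, so dox itself and the induced protein cannot be told apart within a population. The labels number the libraries and add a suffix: each group had libraries 1 and 2 of suffix _120519 and a library 2 of suffix _290419, and what the suffix marks is not stated.

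Type I interferons are secreted proteins that cells release when they sense foreign or misplaced nucleic acids. Type I interferons bind the receptor formed by Ifnar1 and Ifnar2, whose kinases activate STAT factors, and Stat2 joins Irf9 in a complex that binds interferon-stimulated response elements (ISRE) in promoters. Interferon gamma acts through STAT dimers at gamma-activated sites (GAS), with Irf1 as an early target. Fibroblasts both make and answer type I interferon, and the genes followed here comprise regulators of the response (Stat2, Irf1, Irf7, Irf9), sensors of viral RNA (Ddx58, Ifih1, Dhx58, Eif2ak2, Zbp1), antiviral effectors (the Ifit, Oas and Mx genes, Isg15, Rsad2, Bst2) and antigen-processing genes (Psmb8, Psmb9, Tap1).

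RefSeq promoters of build GRCm38.p6 (250 bases before to 50 after the start) were found for 24 of the 33 genes, and 10 of these 24 held the ISRE letters GAAANNGAAA on either strand, against 3.44% of 32851 promoters of the same length. They were found in the tested Isg15, Ifit1, Ifit3, Bst2, Stat2, Eif2ak2 and Ddx58 and in the untested Ifih1, Oas1a and Rsad2. The GAS letters TTCNNNGAA stood in the promoters of 7 of the 24, among them Irf1, Ifi35, Ifit2, Bst2 and Eif2ak2, against 8.30% of all promoters. Bst2, Eif2ak2 and Oas1a held both motifs. The windows below, 30 bases each and read 5′ to 3′ on the gene's strand, are shown for genes whose levels are described later, with every match in capitals.
Isg15: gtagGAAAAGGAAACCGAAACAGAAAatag
Ifit1: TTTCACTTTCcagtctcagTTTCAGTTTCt
Ifit3, farther from the start: cagtggtaagTTTCACTTTCctcttctggt
Ifit3, nearer to the start: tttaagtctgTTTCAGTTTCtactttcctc
Stat2: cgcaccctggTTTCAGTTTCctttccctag
Ddx58: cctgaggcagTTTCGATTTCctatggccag
Irf1, GAS letters: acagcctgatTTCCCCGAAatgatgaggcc
The Isg15 window (chr4:156200871-156200900, minus strand) holds 3 overlapping matches that begin 78 bases before the start. In the Ifit1 window (chr19:34640785-34640814, plus strand) there are 2 matches in the opposite orientation, and the Ifit3 windows (chr19:34583363-34583392 and chr19:34583397-34583426, plus strand) hold 1 each. Stat2 (chr10:128270266-128270295, plus strand) and Ddx58 (chr4:40239804-40239833, minus strand) have 1 match each, that of Ddx58 just after the start. The Irf1 window (chr11:53769914-53769943, plus strand) begins its match 90 bases before the start. A match is a description of letters in this window, and no binding was measured.

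Total counts per library lay between 13549331 and 18982127, which puts 3 counts at 0.158 to 0.221 CPM, the counts scaled to a library of 1e+06. The construct row held 5 to 12 counts in the 6 libraries without dox and 35 to 268 in the 6 with dox, as labelled. With dox, NLS-N-VEGF cells held 48 and 35 counts in libraries 1 and 2 of suffix _120519 and 173 in suffix _290419. N-VEGF cells held 121, 149 and 268 in the same order. All 9 fibroblast markers were expressed, with a summed level of 11222 to 14170 CPM, and 3 of 7 macrophage markers were expressed, Cd14 at a mean of 24.4, Csf1r at 7.09 and Cd68 at 3.69 CPM. Of the other macrophage markers Ptprc held 15 counts, Itgam 4 and Adgre1 1 over all 12 libraries. The genes of dendritic cells held 30 counts in total and those of T and B cells 62, with Cd3e at 0. N-VEGF cells without dox had a library that stood apart, number 1 of suffix _120519, with the fewest genes detected (19976 against 20947 to 22889 in the others). Its counts differed from those of library 2 of the same suffix by a chi-square of 23.9 per gene, against 1.68 to 4.59 for the corresponding pairs of the other 3 groups.

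Most of the interferon programme was read at a low level in these fibroblasts. Of the 33 genes, 20 averaged at least 1 CPM, and the median over the 21 tested genes was 6.93 CPM against 24.4 CPM over all tested genes, with 18 of the 21 below that median. Scaled per kilobase of exon, the level was highest for Ifit2, an RNA-binding antiviral effector, at 16.6 CPM per kilobase, followed by Trim25, the ubiquitin ligase that acts with the Ddx58 sensor, at 11.6. Next came Eif2ak2, the kinase PKR that senses double-stranded RNA, at 8.37, and Bst2, the tetherin that holds budding virus at the membrane, at 7.67 CPM per kilobase. Other effectors stood lower than Ifit2 and Bst2: Isg15, a ubiquitin-like modifier, was at 3.10, Ifit1 at 0.786 and Ifit3 at 0.732 CPM per kilobase. Irf7, the factor that amplifies type I interferon, was the lowest of the tested genes at 0.126 CPM per kilobase. The ranges over 12 libraries overlapped in 19 of 20 neighbouring pairs, the exception being Bst2 above Ifi35. Within libraries, 5 of the 20 pairs kept their order in all 12, namely Trim25 over Eif2ak2, Bst2 over Ifi35, Isg15 over Tap1, Xaf1 over Parp14 and Parp14 over Irf7.

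**Figure D1:**
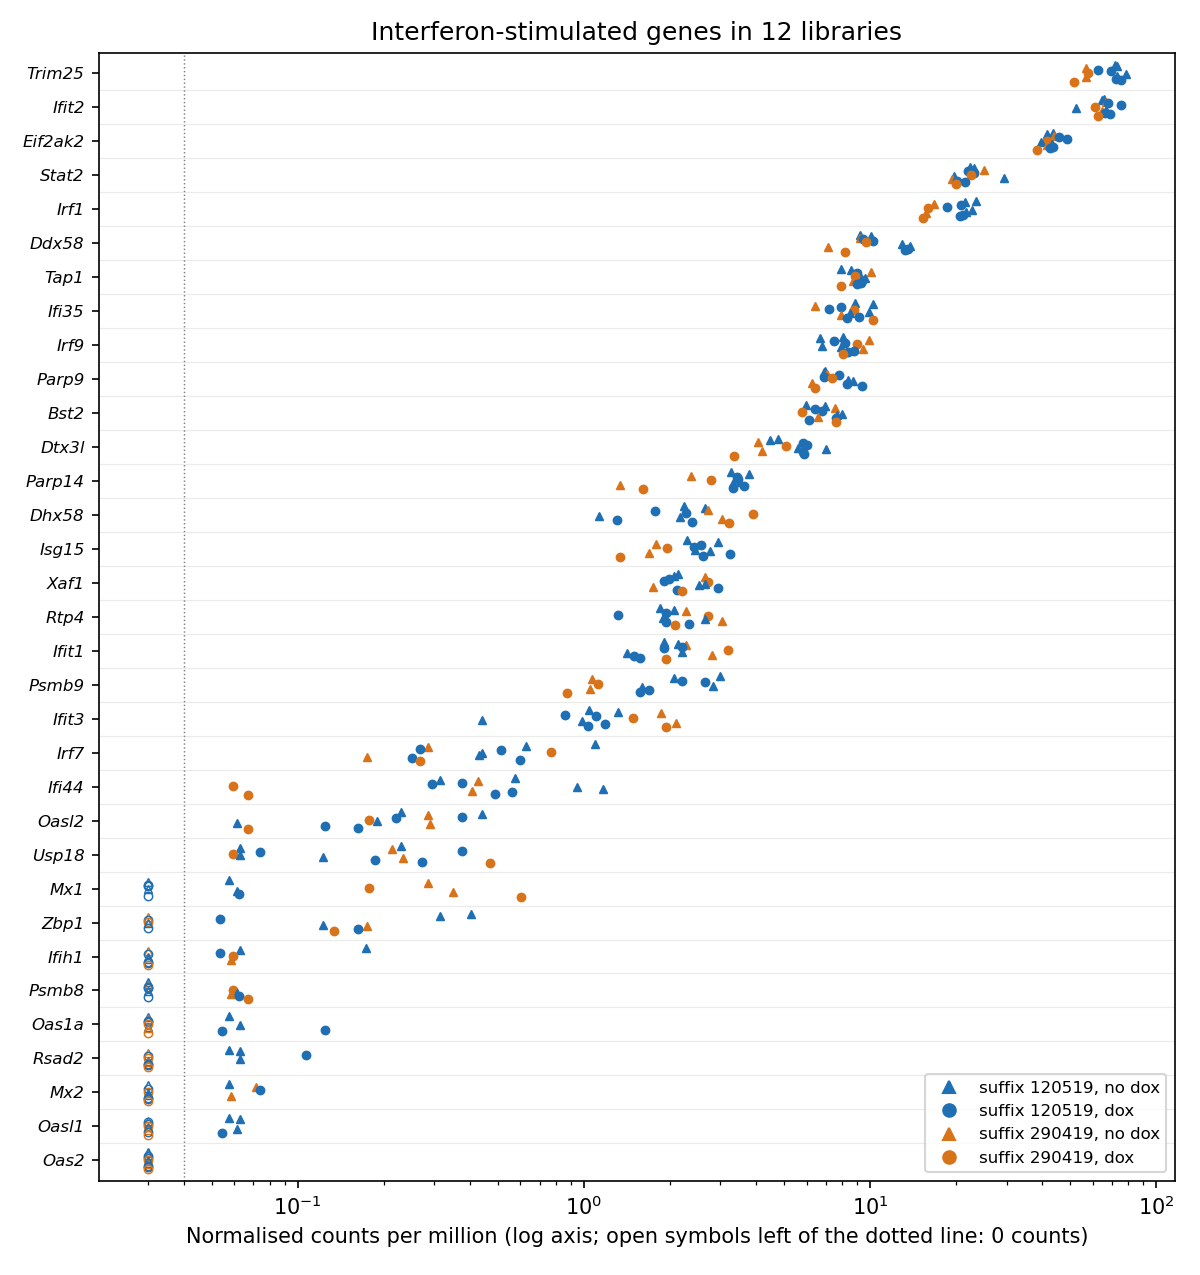
Normalized CPM (log axis) of the 33 genes in each of 12 libraries, ordered by mean; triangles are libraries without dox, circles with dox, blue suffix _120519 and orange suffix _290419, and open symbols at the left are libraries with 0 counts. The genes span from Trim25 at 51.6 to 78.3 CPM down to Oas2 with 0 counts in every library, and dox and no dox symbols intermingle.

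The 12 untested genes were mostly antiviral effectors and held few counts. Oas2, an oligoadenylate synthetase that activates RNase L, held 0 counts in all 12 libraries, which allows at most 0.0153 CPM over the series. Oasl1, Mx2, Oas1a, Rsad2, Psmb8 and Ifih1 held 4 to 7 counts each over the series, and none of these 6 exceeded 3 counts in a library. Ifih1, the MDA5 sensor of long double-stranded RNA, held 7 counts in 5 libraries, and Rsad2, the antiviral enzyme viperin, 5 counts in 4. Zbp1, a sensor of Z-form nucleic acids, held 23 counts, Mx1 25, Usp18 39, Oasl2 43 and Ifi44 93. The interferon genes themselves were near 0: none of 10 ligands passed the filter, 3 held no count at all, and Ifnb1, the type I interferon that fibroblasts make first, held 5 counts in all 12 libraries. The sum of the 10 ligands did not exceed 0.414 CPM in a library. At such counts only large differences could be detected. In bulk libraries, fewer cells that express a gene and less RNA per cell cannot be told apart.

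The upstream part of the pathway was expressed. Of 11 receptor, kinase and STAT genes 10 were tested, with a summed level of 519 to 679 CPM per library. The largest parts of that sum were Jak1, at a mean of 301 CPM, and Stat3, at 101. The receptor chains were lower, with Ifnar1 at 39.3, Ifnar2 at 11.9, Ifngr1 at 17.7 and Ifngr2 at 39.6 CPM, and Ifnlr1 held 0 counts. Of 17 further sensing and signalling genes 13 were tested. Stat2 was read in every library. Uninduced NLS-N-VEGF cells held 22.4, 23.1 and 25.1 CPM, in the order library 1 and library 2 of suffix _120519 and library 2 of suffix _290419, an order kept below. With dox these cells held 22.0, 23.0 and 22.6 CPM. In N-VEGF cells Stat2 held 19.7, 29.5 and 19.4 CPM without dox and 20.1, 21.5 and 19.9 with dox. Apart from the library at 29.5 CPM, every library lay between 19.4 and 25.1 CPM. Irf9, the DNA-binding partner of Stat2, held 8.05, 6.66 and 9.92 CPM in uninduced NLS-N-VEGF cells and 7.5, 8.17 and 9.0 with dox. N-VEGF cells had 6.79, 7.89 and 9.44 CPM of Irf9 without dox and 8.81, 8.35 and 8.04 with dox, so all groups overlapped.

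Whether dox, with the construct it induces, moves these genes was asked in each population. In NLS-N-VEGF cells 0 of 21 genes passed an adjusted p of 0.05 in edgeR's quasi-likelihood test, and none had an unadjusted p under 0.05; over all genes the share called was 0.022% of 13608. DESeq2 called 0 members and gave none an unadjusted p under 0.05. The 21 log2 fold changes had a median of -0.02 against 0.00 over all genes, with 10 positive and 11 negative. Their 95% intervals lay within a 2-fold change either way for 18 of 21 genes and within 1.5-fold for 11. The remaining 3, Irf7, Ifit3 and Psmb9, are genes with few counts or wide spread. Their log2 intervals were -1.62 to 0.81, -1.34 to 0.77 and -1.06 to 0.94. A 2-fold fall thus lay inside these intervals and a 2-fold rise outside them. With the replicate label as a block, which pairs the libraries, 0.125% of all genes were called and again 0 of 21 members, and 20 of the 21 intervals lay within 2-fold.

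Named by the smallest p in NLS-N-VEGF cells were Dtx3l, Irf1 and Eif2ak2, none of which passed. Dtx3l, a ubiquitin ligase that works with Parp9, held 4.77, 4.46 and 4.07 CPM without dox and 5.84, 6.04 and 5.09 with dox. All 3 libraries with dox were above all 3 without, and the share of all genes with such a separation is not given here. The log2 difference was 0.35 (95% interval -0.17 to 0.87, unadjusted p 0.171, edgeR adjusted p 1.0). Under the block it was 0.36 (95% interval -0.004 to 0.715, unadjusted p 0.0522, edgeR adjusted p 0.698). Exons of Dtx3l share 8.0% of their bases with Parp9 on the opposite strand, and the library kit does not mark strand, so reads there cannot be assigned. Irf1 held 23.5, 21.5 and 16.7 CPM without dox and 20.8, 18.5 and 15.9 with dox, a log2 difference of -0.16 (95% interval -0.56 to 0.23, edgeR adjusted p 1.0). It ranged from -0.30 without the library at 16.7 CPM to -0.06 without the one at 23.5 CPM. Under the block the Irf1 difference was -0.16 (95% interval -0.34 to 0.03, edgeR unadjusted p 0.0901, adjusted p 0.752). Each library with dox was below its same-labelled partner while the groups overlapped. Eif2ak2 held 43.6, 41.6 and 43.8 CPM without and 45.6, 48.6 and 41.6 CPM with dox, and the log2 difference was 0.07 (95% interval -0.12 to 0.26, edgeR adjusted p 1.0).

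N-VEGF cells gave the same counts. None of 21 genes passed or had an unadjusted p under 0.05 in edgeR, against 0.0367% of all genes called, and DESeq2 called 0 members, none at an unadjusted p under 0.05. The median log2 fold change was 0.05 against 0.00 over all genes, and 17 of 21 intervals lay within 2-fold. Under the replicate block 0.11% of all genes were called and 0 of the 21. Ifit1, which binds viral RNA that lacks the host cap, had the smallest p. It held 2.2, 1.42 and 2.80 CPM without dox and 1.5, 1.57 and 1.94 with dox, overlapping ranges, with a log2 difference of -0.36 (95% interval -0.99 to 0.28, unadjusted p 0.242, edgeR adjusted p 1.0). It was -0.14 without the library at 2.80 CPM and -0.58 without the one at 1.42 CPM. For Stat2, given above, the log2 difference was -0.16 (95% interval -0.47 to 0.15, edgeR adjusted p 1.0), and without the library at 29.5 CPM its sign turned, to 0.07. Ifit2 held 52.5, 66.9 and 64.9 CPM without dox and 66.4, 68.8 and 62.7 with dox. Its log2 difference was 0.10 (95% interval -0.13 to 0.33, edgeR adjusted p 1.0), and it turned to -0.01 without the library at 52.5 CPM, the one that stood apart.

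**Figure D2:**
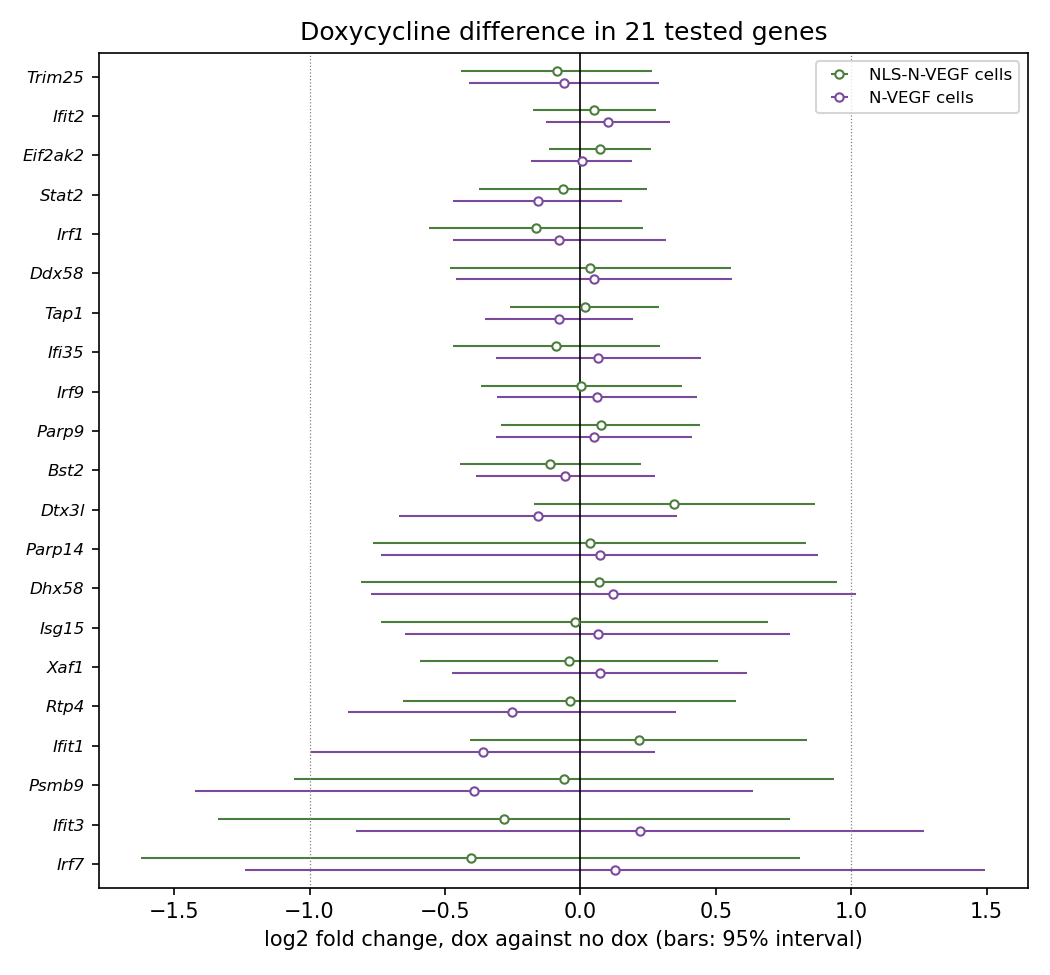
log2 fold change of dox against no dox for the 21 tested genes, ordered by level, in NLS-N-VEGF cells (green) and N-VEGF cells (purple); points are edgeR estimates, bars 95% intervals, and dotted lines mark a 2-fold change. Every interval includes 0, and the widest belong to Irf7, Ifit3 and Psmb9.

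Averaged over both populations, dox again moved 0 of 21 genes past the threshold in edgeR, with none at an unadjusted p under 0.05, 0 called by DESeq2 and 0.0588% of all genes called in edgeR. The block raised that share to 0.566% and still called 0 of the 21. The median log2 difference was -0.01, and 20 of 21 intervals lay within 2-fold, 16 of them within 1.5-fold. The smallest p-values belonged to Stat2 (log2 difference -0.11, 95% interval -0.33 to 0.11), Ifit2 (0.08, -0.08 to 0.24) and Irf1 (-0.12, -0.40 to 0.16), each with an edgeR adjusted p of 1.0. Across the 6 same-labelled pairs none of the 21 genes was higher with dox in all 6, and Irf1 alone was lower in all 6, by -0.04 to -0.22 on the log2 scale. Under the block its edgeR adjusted p was 0.589. The share of all genes with 1 sign in all 6 pairs is not given here, so the count is no result about Irf1. Of the 13 protein genes of the mitochondrial genome 0 passed with dox in edgeR, with a median log2 difference of 0.28 in the average. Of these 13, 4 had an unadjusted p under 0.05, against 423 of all 13608 genes. Their summed level was 40274 to 50721 CPM without and 48103 to 60889 CPM with dox. The lowest sum came from the library that stood apart, where these genes took 3.84% of counts, the lowest share of the 12 libraries. The tested interferon-stimulated genes summed to 266 to 315 CPM without and 255 to 307 CPM with dox. The part of the mitochondrial transcripts in these values was not tested.

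The NLS was examined through the difference of the dox effects between the populations. Construct counts with dox were lower in NLS-N-VEGF cells in each same-labelled pair, so the populations differed in more than the NLS. The part of the construct level was not tested. None of the 21 genes passed and none had an unadjusted p under 0.05 in edgeR, DESeq2 called 0 members, and the share of all genes called was 0%. Dtx3l differed by 0.50 (95% interval -0.23 to 1.23), Ifit1 by 0.57 (-0.31 to 1.46) and Ifit3 by -0.50 (-1.99 to 0.99) on the log2 scale, each with an edgeR adjusted p of 1.0. With the block, Dtx3l had an unadjusted p of 0.0444 and an edgeR adjusted p of 1.0. Only 12 of the 21 intervals lay within 2-fold here, and 16 under the block. For the others the intervals took in a difference of that size in at least 1 direction. Leaving out 1 library moved these values over a range of 0.29 to 0.69 for Dtx3l (lowest without the suffix _290419 library of N-VEGF cells with dox), 0.33 to 0.80 for Ifit1 (lowest without that of NLS-N-VEGF cells with dox) and -1.20 to -0.11 for Ifit3. The Ifit3 extremes came without the N-VEGF libraries without dox, -1.20 without that of suffix _290419 and -0.11 without the one that stood apart.

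Direct comparisons of the populations gave no call either. With dox, 0 of 21 genes passed in edgeR (0% of all genes called, 0.0147% under the block), none at an unadjusted p under 0.05, and DESeq2 called 0 members. Ifit1 held 2.2, 1.91 and 3.20 CPM in NLS-N-VEGF cells against 1.5, 1.57 and 1.94 in N-VEGF cells, higher in each same-labelled pair while the ranges overlapped. The log2 difference was 0.55 (95% interval -0.08 to 1.18, edgeR adjusted p 1.0), and under the block its unadjusted p was 0.0375. Without the library at 3.20 CPM it fell to 0.30. Eif2ak2 differed by 0.12 (95% interval -0.06 to 0.31), and Ifi35, a cytoplasmic interferon-induced leucine zipper protein, by -0.20 (95% interval -0.58 to 0.18), both with an edgeR adjusted p of 1.0. Without dox the count was also 0 of 21 (0% of all genes) in edgeR, none at an unadjusted p under 0.05 and 0 called in DESeq2. Irf7 held 1.09, 0.629 and 0.286 CPM in NLS-N-VEGF cells and 0.440, 0.431 and 0.175 CPM in N-VEGF cells, again higher in each pair. Its log2 difference of 0.96 had a 95% interval of -0.32 to 2.24 and an edgeR adjusted p of 1.0, with 94 counts over the whole series. Without the library at 1.09 CPM it fell to 0.41. With dox Irf7 held 0.268, 0.515 and 0.770 CPM in NLS-N-VEGF and 0.250, 0.597 and 0.268 CPM in N-VEGF cells. Dtx3l differed by -0.33 (95% interval -0.85 to 0.18) and Rtp4, a chaperone of receptor transport, by -0.29 (95% interval -0.90 to 0.32), each with an edgeR adjusted p of 1.0. In all 6 comparisons between groups, none of the other fixed pathway lists (ligands, receptors and STATs, sensing, clearance, antigen presentation, guanylate binding proteins and other interferon-induced genes) had a gene past the threshold.

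Calls among these genes came only between the suffixes of the library labels, where most calls over all genes also lay. Between suffix _290419 and suffix _120519, with group in the model, 10 of 21 genes passed an edgeR adjusted p of 0.05, 7 lower and 3 higher in suffix _290419. The share over all genes was 45.6%, 22.2% higher and 23.5% lower, so the 10 of 21 lay near the background of the table. The median log2 difference was -0.07 for the 21 against 0.01 for all genes, and the median size 0.37 against 0.21. DESeq2 also called 10 members, 9 of them shared, with Ifi44 in place of Ifit1. Libraries of the suffixes did not overlap for 7 of the 21 genes, against 28% of all genes. Each group had 2 libraries of suffix _120519 and 1 of suffix _290419, so the suffix is balanced over dox and population. The construct counts with dox did differ by suffix. In NLS-N-VEGF cells they were 173 in suffix _290419 against 48 and 35, and in N-VEGF cells 268 against 121 and 149. The part of the construct level in the suffix differences was not tested.

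Of the regulators, Irf1 was lower in suffix _290419. It held 18.5 to 23.5 CPM (median 21.3) in the 8 libraries of suffix _120519 and 16.7, 15.9, 15.7 and 15.3 CPM in the 4 of suffix _290419, here in the order NLS-N-VEGF without and with dox and N-VEGF without and with dox. The suffixes did not overlap, and the log2 difference was -0.42 (SE 0.07, edgeR adjusted p 0.000102). Irf9 went the other way without passing, at 6.66 to 8.81 CPM (median 7.97) against 9.92, 9.0, 9.44 and 8.04 CPM. The log2 difference of Irf9 was 0.23 (SE 0.10, edgeR adjusted p 0.0765). Stat2 differed by -0.06 (SE 0.10, edgeR adjusted p 0.612) and Irf7 by -0.45 (SE 0.43, edgeR adjusted p 0.404). The calls of Irf9 and Irf7 turned on single libraries: without the suffix _290419 library of N-VEGF cells with dox Irf9 passed at 0.33 (edgeR adjusted p 0.0266), and without that of NLS-N-VEGF cells with dox Irf7 passed at -1.21 (edgeR adjusted p 0.0421).

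The RNA sensors were split. Ddx58, the RIG-I sensor of uncapped RNA, held 9.26 to 13.8 CPM (median 11.5) in suffix _120519 and 9.21, 9.65, 7.11 and 8.17 CPM in suffix _290419, overlapping ranges with a log2 difference of -0.42 (SE 0.12, edgeR adjusted p 0.0109). The call was lost without the N-VEGF library of suffix _290419 without dox, at -0.27, or the one with dox, at -0.33. Trim25, its ubiquitin ligase, held 62.8 to 78.3 CPM (median 72.5) against 56.8, 57.6, 56.9 and 51.6 CPM, with no overlap (log2 difference -0.37, SE 0.06, edgeR adjusted p 0.000105). Dhx58, the LGP2 helicase that modulates RIG-I and MDA5, was higher in suffix _290419, where it held 2.71, 3.91, 3.03 and 3.21 CPM against 1.13 to 2.64 CPM (median 2.2). These ranges did not overlap, and the log2 difference was 0.70 (SE 0.20, edgeR adjusted p 0.00880). Dhx58 shares 4.31% of its exon bases with an antisense transcript, and its call was lost in 3 alternatives, among them without the suffix _290419 library of dox-treated NLS-N-VEGF cells, at 0.60. Eif2ak2 differed by -0.07 (SE 0.06, edgeR adjusted p 0.295).

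Among the effectors, Ifit1 and Ifit3 were higher and Isg15 was lower in suffix _290419, and all 3 hold ISRE letters in the windows shown. Ifit3 held 0.440 to 1.32 CPM (median 1.03) in suffix _120519 and 1.86, 1.48, 2.1 and 1.94 CPM in suffix _290419, without overlap (log2 difference 0.90, SE 0.22, edgeR adjusted p 0.00343). Ifit1 held 1.42 to 2.2 CPM (median 1.91) against 2.28, 3.20, 2.80 and 1.94 CPM, a log2 difference of 0.46 (SE 0.16, edgeR adjusted p 0.0305). That call was lost in 10 of 20 alternatives. Among them were the NLS-N-VEGF libraries with dox left out in turn (0.46 and 0.43 without numbers 1 and 2 of suffix _120519, 0.39 without suffix _290419). Leaving out number 2 of suffix _120519 or the library of suffix _290419 in N-VEGF cells without dox gave 0.39 and 0.40, and leaving out the suffix _290419 library with dox gave 0.49. Ifit2 differed by -0.04 (SE 0.07, edgeR adjusted p 0.617), and reads of the related Ifit genes can be hard to assign between near-identical copies. Isg15 was lower, at 1.78, 1.95, 1.69 and 1.34 CPM in suffix _290419 against 2.30 to 3.25 CPM (median 2.59), again without overlap. Its log2 difference was -0.65 (SE 0.17, edgeR adjusted p 0.00568). Bst2, which also holds ISRE letters, differed by -0.01 (SE 0.11, edgeR adjusted p 0.940).

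Parp14 and Dtx3l, of the ADP-ribosylation and ubiquitin machinery on chromosome 16, were lower in suffix _290419. Parp14, an ADP-ribosyltransferase, held 3.28 to 3.77 CPM (median 3.44) against 2.36, 2.78, 1.34 and 1.61 CPM, with no overlap and a log2 difference of -0.79 (SE 0.17, edgeR adjusted p 0.00130). Dtx3l held 4.46 to 7.02 CPM (median 5.83) against 4.07, 5.09, 4.20 and 3.35 CPM. The ranges overlapped, the log2 difference was -0.44 (SE 0.13, edgeR adjusted p 0.00921), and the call was lost without the N-VEGF library with dox of suffix _290419, at -0.34. Parp9, their partner, differed by -0.22 (SE 0.11, edgeR adjusted p 0.0984).

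In antigen processing, Psmb9 had the largest difference of the tested genes. This inducible proteasome subunit held 1.57 to 2.99 CPM (median 2.14) in suffix _120519 and 1.07, 1.12, 1.05 and 0.871 CPM in suffix _290419. The ranges did not overlap, and Psmb9 was the only gene of the 21 with a called difference of at least 2-fold, a log2 difference of -1.08 (SE 0.21, edgeR adjusted p 0.000649), against 4.98% of all genes. Tap1, the peptide transporter whose gene overlaps Psmb9 on the other strand over 3.87% of its exon bases, differed by -0.01 (SE 0.09, edgeR adjusted p 0.907). Of 12 further antigen presentation genes 5 passed, 4 of them lower, against 45.6% called and 23.5% lower over all genes. H2-K1, a class I heavy chain, differed by -0.72 (SE 0.08, edgeR adjusted p 4.37e-06), Calr, an endoplasmic reticulum chaperone of class I assembly, by 0.41 (SE 0.07, edgeR adjusted p 0.000297) and H2-D1 by -0.27 (SE 0.07, edgeR adjusted p 0.00312).

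**Figure D3:**
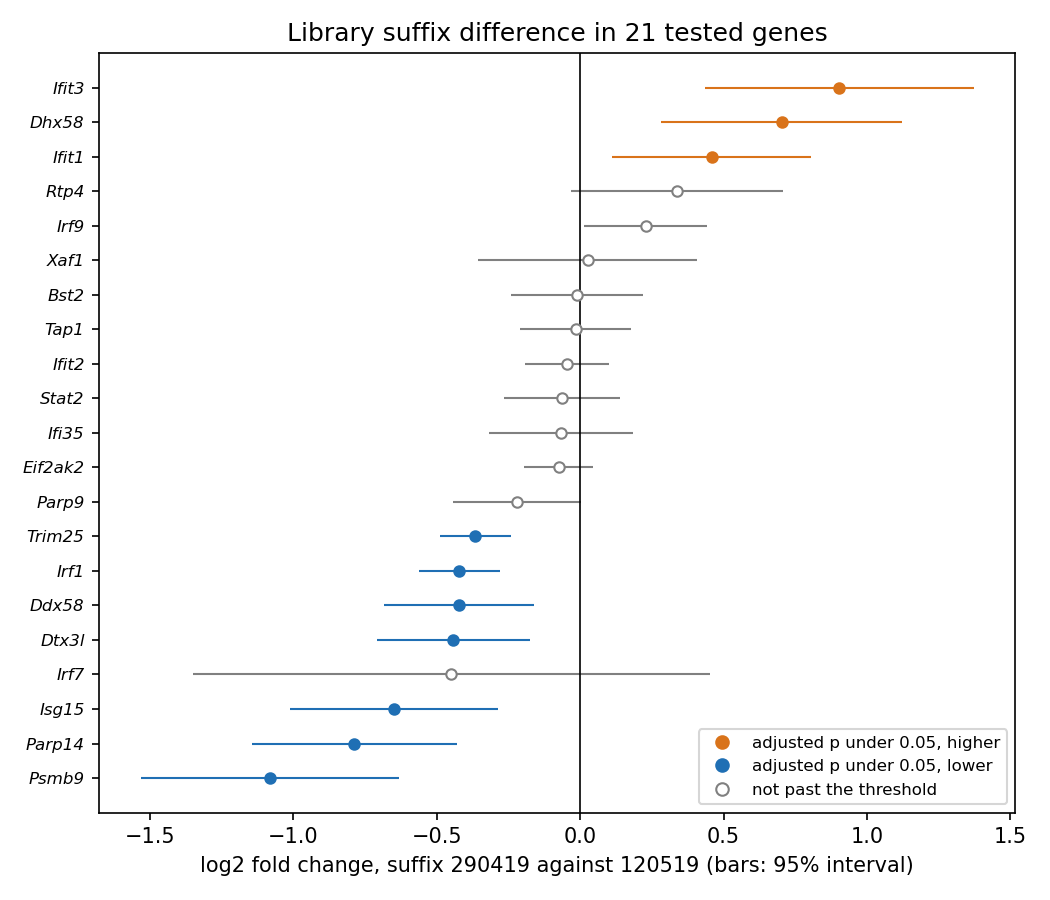
log2 fold change of suffix _290419 against _120519 for the 21 tested genes, with group in the edgeR model; bars are 95% intervals, filled points passed an adjusted p of 0.05 (orange higher, blue lower in suffix _290419). The range runs from Psmb9 at -1.08 to Ifit3 at 0.90.

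**Figure D4:**
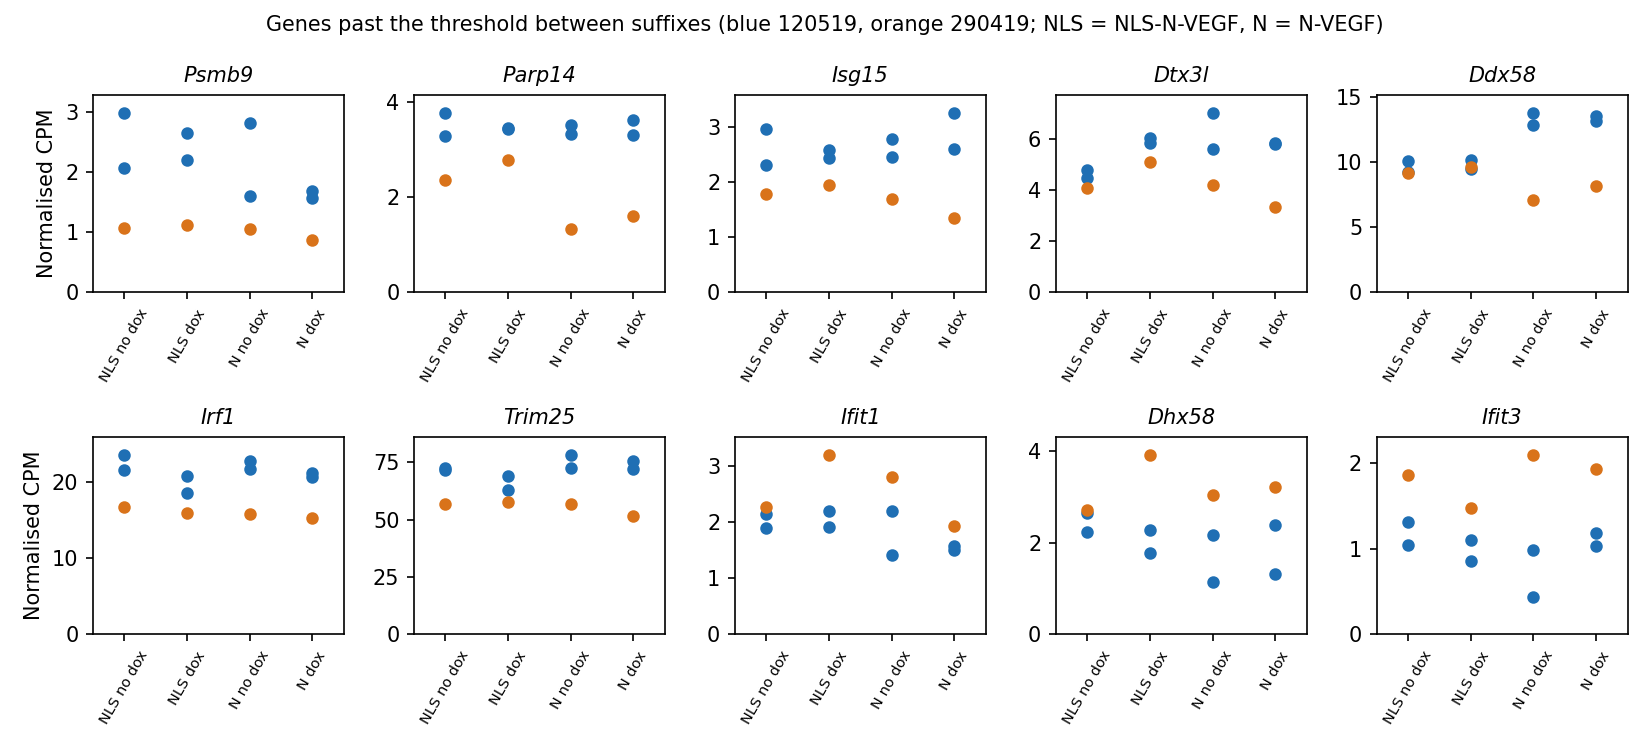
Normalized CPM (axis from 0) of the 10 genes past the threshold, by group, each point a library, blue for suffix _120519 and orange for suffix _290419. In each of the 4 groups the orange point lies below the mean of the blue points for Psmb9, Parp14, Isg15, Dtx3l, Ddx58, Irf1 and Trim25 and above it for Ifit1, Dhx58 and Ifit3.

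The remaining tested genes, Rtp4, Xaf1 and Ifi35, had log2 differences of 0.34, 0.03 and -0.07 and did not pass. Among the untested genes, Mx1, the dynamin-like GTPase that blocks influenza virus, held 0 or 1 count in each of the 8 libraries of suffix _120519 and 4, 3, 6 and 9 counts in the 4 of suffix _290419. Its counts thus summed to 3 against 22. Ifi44 summed to 78 counts over the 8 libraries of suffix _120519 and 15 over the 4 of suffix _290419, with 6, 1, 7 and 1 counts. Both passed in edgeR where no filter on low counts was set, which gave 11 members called, and Ifi44 also passed in DESeq2.

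Within the 6 libraries without dox 4 of the 21 genes passed between the suffixes, against 22.1% of all genes, and within the 6 with dox 7, against 36.3%. Irf1, Trim25, Psmb9 and Parp14 passed in both subsets and in each of the 20 alternatives to the fit over both populations. Taking library 2 alone of both suffixes, so that only the suffix differs in the label, 9 of the 21 passed against 41.8% of all genes. All 21 kept the sign they had over the 12 libraries. This subset is part of the 12 and holds every library of suffix _290419, so the signs are no independent check. The share of all genes that kept their sign is not given here.

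A suffix term for each population was then set in 1 fit over all 12 libraries, chosen after the values had been seen. It gave 10 calls of 21 in N-VEGF cells, 8 lower and 2 higher, and 3 of 21 in NLS-N-VEGF cells, all lower. Over all genes the shares were 36.9% and 21.2%. Psmb9, Irf1 and Trim25 passed in both populations. Ddx58 illustrates the spread: in NLS-N-VEGF cells it held 9.26 and 10.1 CPM without dox and 9.48 and 10.2 with dox in suffix _120519, against 9.21 and 9.65 in suffix _290419. In N-VEGF cells it held 12.9 and 13.8 CPM without and 13.6 and 13.2 with dox in suffix _120519, against 7.11 and 8.17 in suffix _290419. The log2 difference between suffixes was -0.04 in the former and -0.81 in the latter. Tested directly, the difference of these differences was 0.76 (SE 0.16, unadjusted p 0.000256), with an edgeR adjusted p of 0.311, so it did not pass over all genes. It passed at an adjusted p of 0.0449 without the library that stood apart and at 0.0478 without a filter on low counts, and ranged up to 0.997 over the 16 alternatives. Parp14 (0.79, SE 0.29, edgeR adjusted p 0.611), Parp9 (0.46, SE 0.18, edgeR adjusted p 0.633), Xaf1 (0.77, SE 0.31, edgeR adjusted p 0.637) and Dtx3l (0.48, SE 0.22, edgeR adjusted p 0.639) also had an unadjusted p under 0.05 in that test, 5 of 21 with Ddx58 against 7.77% of all genes, and none passed. DESeq2 called none of the members in it.

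**Figure D5:**
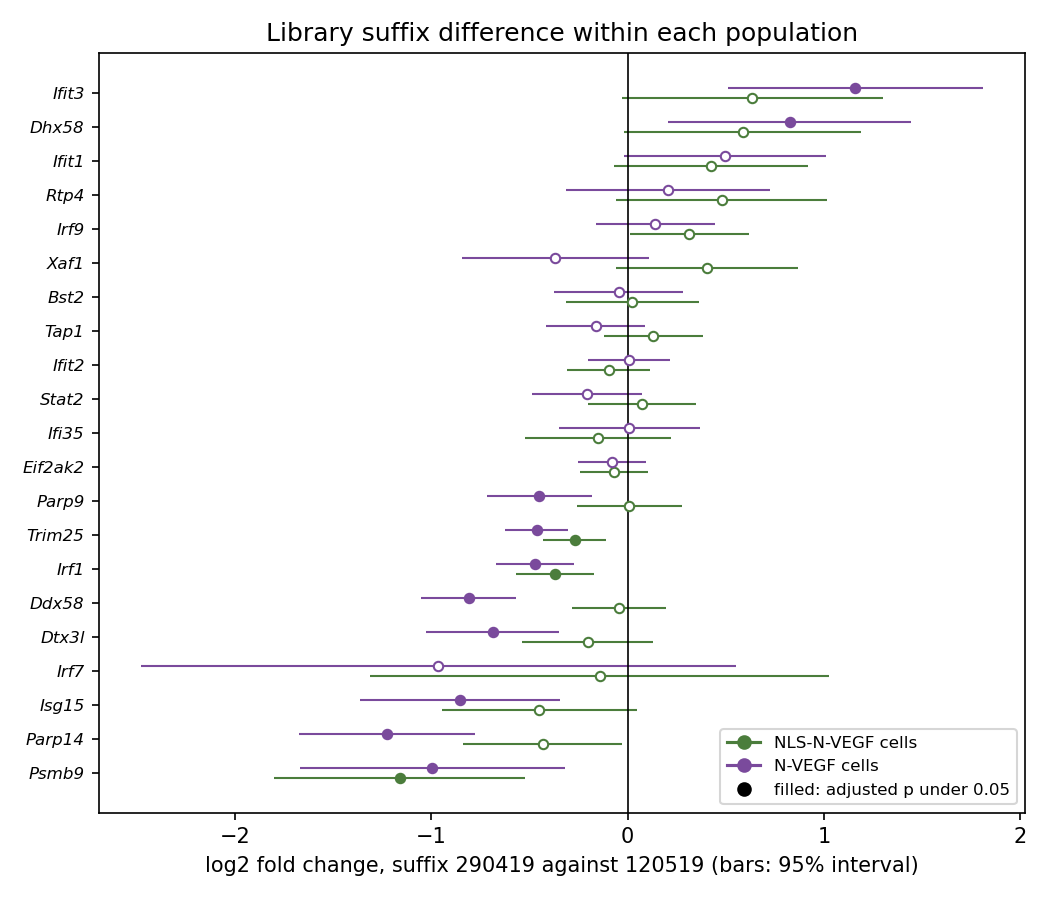
log2 fold change of suffix _290419 against _120519 fitted within NLS-N-VEGF cells (green) and N-VEGF cells (purple) for the 21 tested genes; bars are 95% intervals and filled points passed an edgeR adjusted p of 0.05. The populations lie farthest apart for Irf7, Parp14, Xaf1 and Ddx58, and the interval of Irf7 is the widest.

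Genes of the rest of the pathway passed in both directions between suffixes. The share called over all genes, 45.6% with 22.2% higher and 23.5% lower, is the background for each count that follows. Among the receptor, kinase and STAT genes, Stat3, which carries interleukin-6 type signals, differed by -0.56 (SE 0.08, edgeR adjusted p 3.17e-05), the type I receptor chain Ifnar1 by -0.36 (SE 0.06, edgeR adjusted p 0.000256) and the kinase Jak1 by -0.24 (SE 0.06, edgeR adjusted p 0.00234). Of 13 further sensing genes 3 were higher and 2 lower, with Tbk1, the kinase that activates Irf3, at 0.38 (SE 0.06, edgeR adjusted p 0.000137), Traf3 at -0.27 (SE 0.05, edgeR adjusted p 0.000415) and Ticam1, the adaptor of Toll-like receptor 3, at -0.51 (SE 0.10, edgeR adjusted p 0.000971). Among 11 clearance and negative regulators 1 was higher and 2 were lower, led by Socs3, an inhibitor of cytokine signalling, at -0.66 (SE 0.07, edgeR adjusted p 1.57e-06), with Rnaseh2b, a subunit of RNase H2, at 0.38 (SE 0.08, edgeR adjusted p 0.00112) and the RNA editor Adar at -0.25 (SE 0.06, edgeR adjusted p 0.00203). Of 20 other interferon-induced genes 5 were higher and 6 lower, with Isg20 at -0.60 (SE 0.08, edgeR adjusted p 1.94e-05), Znfx1 at -0.45 (SE 0.07, edgeR adjusted p 6.65e-05) and Samd9l at 0.42 (SE 0.09, edgeR adjusted p 0.00141), and of 5 guanylate binding proteins and related GTPases only Gbp3 passed, at 1.02 (SE 0.27, edgeR adjusted p 0.00566). Of 10 NF-kB response genes, read for contrast, only Nfkb2 passed, at 0.22 (SE 0.07, edgeR adjusted p 0.0171). The fibroblast markers also moved: 7 of 9 passed, 3 higher and 4 lower. Among the lower, Pdgfra differed by -1.32 (SE 0.09, edgeR adjusted p 3.31e-08) and Col3a1 by -1.22 (SE 0.13, edgeR adjusted p 2.42e-06). Among the higher, Thy1 had the largest difference, 0.53 (SE 0.05, edgeR adjusted p 1.75e-06). The summed levels, which do not show these shifts, were 11222 to 14170 CPM in suffix _120519 and 11562 to 13146 CPM in suffix _290419. All 3 tested macrophage markers of 7 passed (Cd68 higher, Csf1r and Cd14 lower). The summed level of the 7 was 33.1 to 41.2 CPM and 31.0 to 34.8 CPM. The untested Lyz2 held 0.268 to 0.690 CPM over the libraries, while Ptprc, Itgam and Adgre1 stayed near 0 throughout. Of 2 tested epithelial markers Krt14 passed, at 0.73 (SE 0.19, edgeR adjusted p 0.00512), and of 2 endothelial markers 0 passed. The part of these markers in the suffix differences of the interferon-stimulated genes was not tested.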

How the data were processed

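Total RNA of 12 libraries was prepared with TruSeq v2, a kit that does not mark strand, and sequenced as single reads. Per the submitters' processing notes and the methods, the authors trimmed reads with Trim Galore (cutadapt 1.10), aligned them to GRCm38 with TopHat2 2.1.0 and Bowtie2 2.2.6, and counted reads per gene with HTSeq 0.6.1. The strand option was not given in the sources used here. The authors deposited unnormalized read counts for each gene, and all value columns were matched to a library. The authors tested them with DESeq2 1.18.1.

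Here counts were tested with edgeR 4.0.16 in R 4.3.3 (quasi-likelihood F test, two-sided), after filterByExpr by group, which kept 13608 genes, with TMM scaling over all 12 libraries and Benjamini-Hochberg adjustment over all genes tested. Members were fitted with the whole table. CPM are normalized by TMM, and log2 CPM used a prior count of 2. Per-kilobase levels used merged exons of GENCODE M21, where all 33 IDs matched and 32 had the same coordinates. Intervals are at the 95% level, and floors of 3 counts cover counting error only, since no molecular identifiers were used. Alternatives were DESeq2 1.42.0, RLE scaling, no filter, at least 10 counts in every library, each library left out, the replicate block, the suffix as a term and subsets by suffix, dox or number. The fit with a suffix term for each population was added after the values were seen. The code was tested on simulated data.

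Number and suffix together were taken as the replicate label. After the group means were subtracted, same-labelled libraries of different groups correlated by 0.319 to 0.790 in all 18 pairs (12058 genes), so the labels were taken to pair the libraries. Differently numbered libraries of suffix _120519 correlated too, by 0.169 to 0.602 in all 12 pairs, so the number within that suffix was not set apart by this check. Libraries 1 and 2 of suffix _120519 are not stated to be separate cultures, so p-values measure the spread between these libraries, which may be technical. No pair within a group agreed within sampling noise. The members and lists were chosen with earlier results of these data known. The naming rule took every member past the threshold, or else the 3 with the smallest p, and per-library values of at most 12 members between suffixes. A result for 1 gene of the pathway lists is not reported here.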

Additional observations from a re-analysis of the deposited data

Results flagged for a closer look

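For the 10 genes past the threshold between the suffixes, the libraries of each suffix were searched for a library far from its neighbours, 20 sets in all, and 1 was found. Trim25 in the N-VEGF library with dox of suffix _290419 held 51.6 CPM, against 56.8 to 57.6 CPM in the other 3 libraries of that suffix. The limit was Dixon's critical value at the 95% level, which by its definition chance passes in about 1 of 20 sets. Without that library Trim25 kept its direction and its call between the suffixes.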

How the results depend on the processing

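In the 6 comparisons between groups, 0 members were called under each of the 19 alternatives that give a test; suffix _290419 alone has 1 library per group and gives values only. The replicate block changed no member's call; the median log2 fold change under it was 0.00 with dox in NLS-N-VEGF cells, 0.04 in N-VEGF cells, -0.01 averaged and -0.02 for their difference, with -0.02 and 0.02 between populations with and without dox. Without 1 library at a time the medians ranged from -0.03 to 0.01 for dox in NLS-N-VEGF cells, -0.14 to 0.05 in N-VEGF cells, -0.08 to 0.02 averaged, -0.11 to 0.08 for the difference, -0.06 to 0.03 between populations with dox and -0.12 to 0.06 without. The N-VEGF dox median also moved without a filter (-0.01), with at least 10 counts in every library (0.00), in either suffix alone (-0.05 in both) and in DESeq2 (-0.01), the averaged median moved to -0.07 without a filter, and in suffix _290419 alone the medians were 0.05 for dox in NLS-N-VEGF cells and 0.19 between populations with dox; the cause was not tested. Stat2 turned to 0.07 for dox in N-VEGF cells and to 0.00 averaged without N-VEGF no dox library 2 of suffix _120519, and Ifit2 to -0.01 without library 1; with 1 library left out they ranged from -0.28 to 0.07 and -0.17 to 0.00 for Stat2 and from -0.01 to 0.17 for Ifit2. Between suffixes 8 to 10 members were called with 1 library left out, and 4 without dox alone, where fewer libraries were used. The difference of suffix effects between populations gave 1 call, Ddx58, without a filter (0.77) and 0 to 1 with 1 library left out (Ddx58 0.79 without N-VEGF no dox library 1). Depth limits the 12 untested genes, of which 7 held at most 9 counts in all.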
